A study of Caenorhabditis elegans with 14 samples.

Results

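The PUF genes of Caenorhabditis elegans encode sequence-specific RNA-binding proteins named after Pumilio of the fly and FBF of the worm. The 10 members described here were found by gene name, out of 20376 genes with a value in every library: fbf-1, fbf-2, puf-3, puf-5, puf-6, puf-7, puf-8, puf-9, puf-11 and puf-12. All 10 were found and all 10 passed the filter on low values, a mean of 1 FPKM or more over the 13 libraries compared (FPKM counts fragments relative to transcript length and library size). fbf-1, fbf-2, puf-5, puf-6, puf-8 and puf-12 lie on chromosome II, puf-3, puf-7 and puf-11 on chromosome IV, and puf-9 on the X chromosome.

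The study profiled poly(A) RNA of whole worms from 2 strains whose sex does not follow their number of X chromosomes. There were 3 libraries of XO hermaphrodite young adults, 4 of XX male young adults, 3 of XO hermaphrodite L3 larvae and 3 of XX male L3 larvae. XO hermaphrodites were strain TY2205, which is known to carry mutations in her-1, sdc-3 and xol-1, and XX males were strain CB5362, which is known to carry mutations in tra-2 and xol-1. The labels give only the strain names, so the alleles come from background knowledge. The xol-1 mutation is shared by both strains. In wild-type worms hermaphrodites have 2 X chromosomes and males have 1. Young adults were grown for 44 h at 25 °C and L3 larvae for 24 h, with no temperature stated for the larvae, so stage and temperature cannot be told apart. Strain, sex and X chromosome number differ together and cannot be told apart either. Nothing in the labels says that replicates came from separate cultures, so p-values rest on the spread between the sampled libraries, and this spread may be technical.

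PUF proteins bind short elements, usually in the 3' UTR of an mRNA, and mostly lower its translation or stability by recruiting the CCR4-NOT deadenylase. In the worm germline they are known for keeping stem cells dividing, for the switch between making sperm and making oocytes, and for holding maternal mRNAs silent in growing oocytes. Members with closely related sequences often act redundantly, as FBF-1 with FBF-2, PUF-3 with PUF-11, and PUF-6 with PUF-7.

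Relative depth, taken from the steps between low values, was 0.707 to 1.05 in XO hermaphrodite young adults, 0.62 to 1.454 in XX male young adults, 0.224 to 0.796 in XO hermaphrodite L3 larvae and 0.275 to 0.92 in XX male L3 larvae, with XX male young adult replicate 1 as the unit. Absolute depth is unknown, so no counting interval can be given. XO hermaphrodite L3 replicate 1 stood apart from the other XO hermaphrodite L3 libraries for several genes. Its relative depth of 0.224 was close to the 0.228 of XO hermaphrodite L3 replicate 2, while replicate 3 had 0.796. puf-9 was at 33.7 FPKM in replicate 1, against 11.5 FPKM in replicate 2 and 12.8 FPKM in replicate 3. The part of depth in this was not tested. Counts of members called at L3 and the puf-9 differences that include XO hermaphrodite L3 replicate 1 are given with and without it. For the other members the L3 adjusted p without it is given too, and correlations are given only with it. The 10 oocyte markers summed to 4448.4 to 5282.3 FPKM in XO hermaphrodite young adults and 109.5 to 137.3 FPKM in XX male young adults, and the 8 sperm markers to 20.2 to 67.5 FPKM and 795.9 to 1109.3 FPKM in the same groups. In bulk tissue, fewer cells of a type and less RNA per cell cannot be told apart. Here and throughout, differences are XO hermaphrodite minus XX male, or young adult minus L3, on the log2(FPKM + 1) scale, which understates the change of low genes, and adjusted p is limma's with Benjamini-Hochberg adjustment over 14628 genes, called under 0.05.

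In young adults 9 of the 10 PUF genes were higher in XO hermaphrodites relative to XX males, and puf-9 did not pass the test. The range ran from 111.1-fold for puf-5 in the ratio of mean FPKM, through 44.3-fold for puf-3 and 29.9-fold for puf-11, to 1.93-fold for fbf-2. The count of 9 stands against 33.9% of all tested genes called higher and 33.3% called lower in the same comparison. The members' median difference was 2.79 and that of all tested genes was -0.11. Where groups are said below not to overlap, this describes the libraries, and the share of all tested genes without overlap was counted only at L3. At L3 all 10 differences were below 0, with a median of -0.65 against -0.25 for all genes, and fbf-1 alone was called lower.

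**Figure D1:**
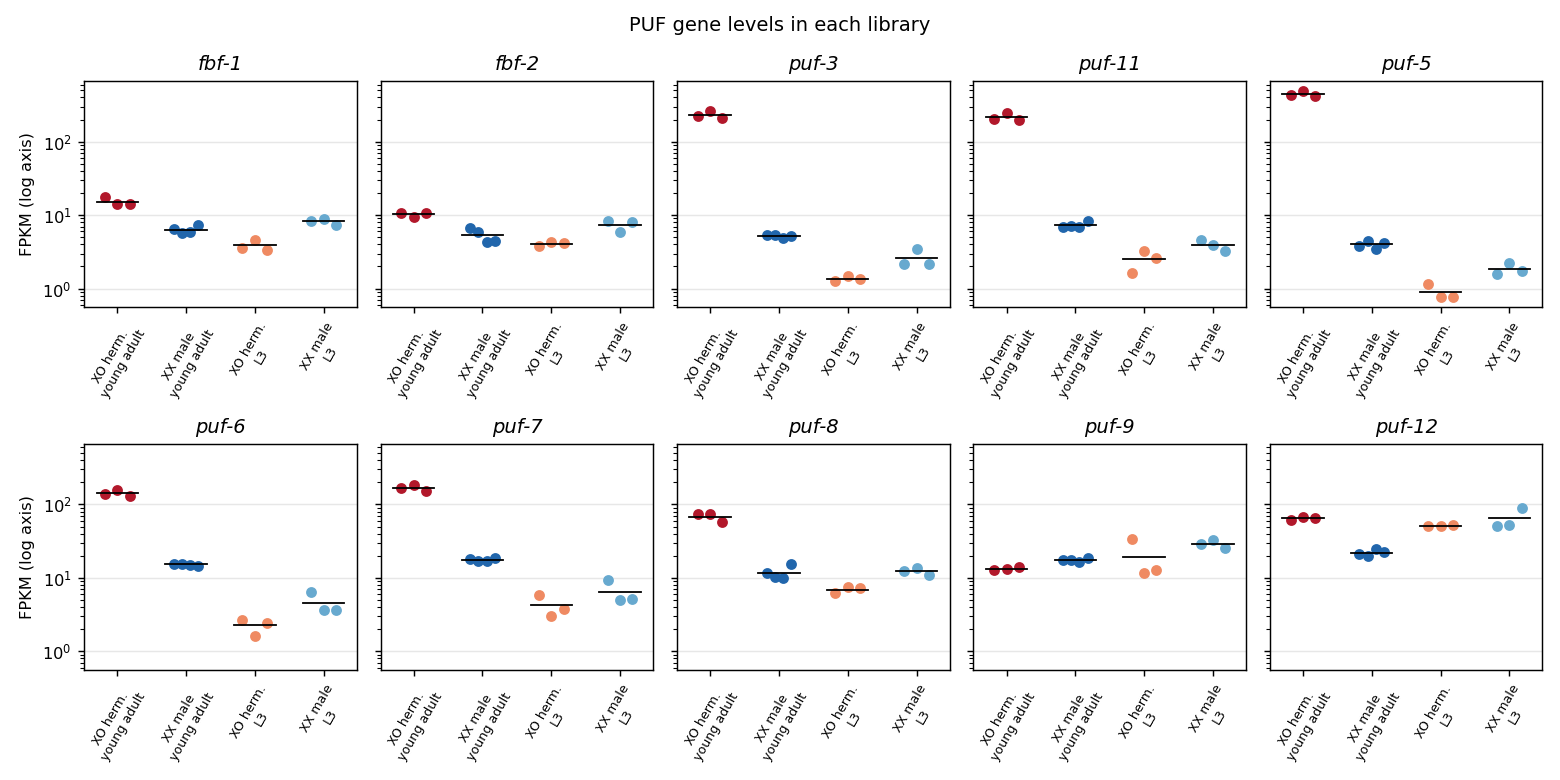
FPKM of each PUF gene in each of the 13 libraries on a log axis, with 1 panel a gene; points are libraries and short lines are group means. The XO hermaphrodite young adult points lie above the XX male young adult points in every panel except that of puf-9, and the largest gap is that of puf-5, with 443.7 and 3.99 FPKM on average. How many of all tested genes separate in this way in young adults was not counted.

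The members with the largest differences act late in oogenesis. PUF-5 is needed, with PUF-6 and PUF-7, for the formation of normal oocytes. puf-5 stood at 432.7, 485.3 and 413.1 FPKM in XO hermaphrodite young adults, against 3.83, 4.49, 3.46 and 4.20 FPKM in XX male young adults. At L3 it was near the floor of the table, at 1.17, 0.768 and 0.766 FPKM in XO hermaphrodites, against 1.57, 2.22 and 1.76 FPKM in XX males. The libraries of the animals did not overlap at either stage, with XO hermaphrodites above as adults and below as larvae. The young adult difference was 6.48 ± 0.17 (SE; limma adjusted p = 1.32e-11), and by level puf-5 ranked 310 among all genes in XO hermaphrodite young adults and 10939 in XX male young adults.

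puf-6 encodes a close relative of PUF-7. Its levels were 138.1, 158.4 and 130.7 FPKM in XO hermaphrodite young adults, against 15.5, 15.6, 15.1 and 14.6 FPKM in XX male young adults. At L3 they were 2.68, 1.61 and 2.45 FPKM in XO hermaphrodites, against 6.40, 3.68 and 3.69 FPKM in XX males. puf-6 rose in XO hermaphrodite young adults by 3.14 ± 0.20 (SE; limma adjusted p = 4.66e-08), and at L3 the difference was -0.77 with an adjusted p of 0.0547, although the libraries did not overlap.

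puf-7 had 164.9, 183.7 and 154.1 FPKM in XO hermaphrodite young adults, against 18.2, 17.2, 16.8 and 18.4 FPKM in XX male young adults. Its L3 values were 5.84, 3.04 and 3.81 FPKM in XO hermaphrodites, against 9.27, 5.02 and 5.08 FPKM in XX males, which overlapped. The adult difference was 3.17 ± 0.23 (SE; limma adjusted p = 1.39e-07). Of the members with oocyte roles, puf-6 and puf-7 were therefore the ones with the most RNA in XX male young adults, at 15.2 ± 0.488 and 17.7 ± 0.763 FPKM (SD, n = 4), above puf-3, puf-5 and puf-11 in every library of that group.

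PUF-3 and PUF-11 are germline proteins with largely shared functions in oocytes and early embryos. puf-3 had 222.9, 261.2 and 209.6 FPKM in XO hermaphrodite young adults, against 5.35, 5.43, 4.92 and 5.20 FPKM in XX male young adults. Its L3 values were 1.26, 1.47 and 1.35 FPKM in XO hermaphrodites, against 2.19, 3.45 and 2.15 FPKM in XX males. The groups did not overlap at either stage, and the adult difference was 5.22 ± 0.17 (SE; limma adjusted p = 9.36e-11).

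puf-11 had 204.8, 249.2 and 200.1 FPKM in XO hermaphrodite young adults, against 6.84, 7.12, 7.0 and 8.24 FPKM in XX male young adults. Its L3 values were 1.63, 3.20 and 2.64 FPKM in XO hermaphrodites, against 4.53, 3.97 and 3.20 FPKM in XX males, which met at their edge. The adult difference was 4.72 ± 0.19 (SE; limma adjusted p = 6.21e-10). In a reference annotation puf-3 lies within afmd-2 on the opposite strand and shares 0 bases of exon with it. afmd-2 stood at 4.78 to 5.58 FPKM in XO hermaphrodite young adults and 5.26 to 7.35 FPKM in XX male young adults, with a difference of -0.22 that was not called (limma adjusted p = 0.479), so it did not move with puf-3.

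PUF-8 acts in the mitotic germline and in spermatocytes, where it keeps cells from returning to mitosis, and with FBF-1 it promotes the switch to oocytes. puf-8 had 74.8, 73.4 and 56.9 FPKM in XO hermaphrodite young adults, against 11.5, 10.3, 10.0 and 15.6 FPKM in XX male young adults. At L3 it had 6.16, 7.47 and 7.16 FPKM in XO hermaphrodites, against 12.4, 13.4 and 10.9 FPKM in XX males. Neither stage showed an overlap, and the order of the animals was opposite at the 2 stages. The adult difference was 2.44 ± 0.19 (SE; limma adjusted p = 2.74e-07), and the L3 difference of -0.74 had an adjusted p of 0.0507.

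FBF-1 and FBF-2 are near-identical proteins that keep germline stem cells dividing by repressing gld-1 and that end sperm production by repressing fem-3. fbf-1 had 17.7, 14.1 and 14.0 FPKM in XO hermaphrodite young adults, against 6.47, 5.68, 5.83 and 7.35 FPKM in XX male young adults. At L3 it had 3.59, 4.65 and 3.34 FPKM in XO hermaphrodites, against 8.37, 8.91 and 7.45 FPKM in XX males. The groups did not overlap at either stage. fbf-1 rose in XO hermaphrodite young adults by 1.15 ± 0.18 (SE; limma adjusted p = 8.71e-05) and fell by 0.93 in XO hermaphrodite L3 larvae (SE 0.19; limma adjusted p = 0.0171). The larval call was lost with only the L3 libraries in the fit (adjusted p = 0.293), with quantile normalization (0.102), and without XO hermaphrodite L3 replicate 3 (0.07) or XX male L3 replicate 1 (0.0561).

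fbf-2 had 10.8, 9.42 and 10.7 FPKM in XO hermaphrodite young adults, against 6.77, 5.83, 4.29 and 4.45 FPKM in XX male young adults. Its L3 values were 3.80, 4.27 and 4.22 FPKM in XO hermaphrodites, against 8.30, 5.87 and 8.09 FPKM in XX males. Again the groups did not overlap and their order was opposite at the 2 stages. The adult difference of 0.85 ± 0.19 (SE; limma adjusted p = 0.00169) was the smallest of those called, and with upper quartile scaling it was 0.48 with an adjusted p of 0.0703. The L3 difference was -0.71 (limma adjusted p = 0.0609).

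PUF-12 resembles the nucleolar protein PUM3 of human more than it resembles FBF. puf-12 had 62.2, 66.8 and 64.3 FPKM in XO hermaphrodite young adults, against 20.9, 19.6, 24.6 and 22.5 FPKM in XX male young adults. At L3 it had 51.4, 51.2 and 51.7 FPKM in XO hermaphrodites, against 51.4, 52.3 and 90.4 FPKM in XX males. The adult groups did not overlap and differed by 1.52 ± 0.19 (SE; limma adjusted p = 1.64e-05). The larval groups overlapped, with replicate 3 of the XX males high, and without that library the L3 difference was -0.01 in place of -0.28. XX male young adults were the low group for puf-12, and the other groups lay within 1.5 times of each other in mean FPKM.

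PUF-9 is known from the hypodermis and neurons, where it represses the timing gene hbl-1. puf-9 had 12.9, 13 and 14 FPKM in XO hermaphrodite young adults, against 17.4, 17.4, 16.5 and 18.5 FPKM in XX male young adults. At L3 it had 33.7, 11.5 and 12.8 FPKM in XO hermaphrodites, against 29.2, 32.5 and 25.6 FPKM in XX males. Every adult XO hermaphrodite library lay below every adult XX male library, and at L3 the first XO hermaphrodite library lay above all XX male libraries while the other 2 lay below them.

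The adult difference of puf-9 was -0.37 ± 0.29 (SE; limma adjusted p = 0.274), with a 95% interval of -0.99 to 0.25. Without XO hermaphrodite L3 replicate 1, which enters only through the shared estimate of the spread, the same difference had an adjusted p of 0.015, and fitted to the young adult libraries alone it had 0.0107. Scaled to an equal sum of FPKM it was 0.02. At L3 puf-9 differed by -0.72 (limma adjusted p = 0.151), and without that replicate by -1.19 with an adjusted p of 0.000189. puf-9 is the only member on the X chromosome, of which XO animals have 1 and XX animals have 2.

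**Figure D2:**
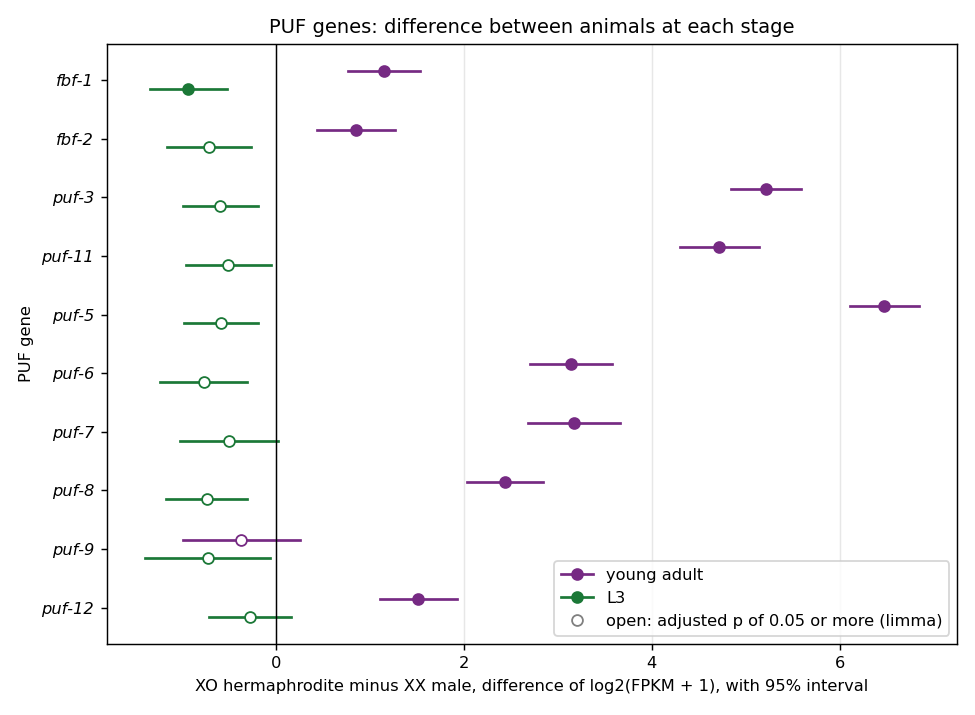
Difference between XO hermaphrodites and XX males in log2(FPKM + 1) for each PUF gene, in young adults and at L3, with limma's 95% interval; filled points were called and open ones were not. Young adult differences reach 6.48 for puf-5, while all L3 differences lie between -0.93 and -0.28.

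The L3 comparison was less precise than the adult one, with a median SD per gene of 0.36 and 0.35 on the log2 scale in XO hermaphrodite and XX male larvae, against 0.18 and 0.20 in young adults. Of all tested genes, 1.26% were called higher and 4.31% lower at L3. 6 members did not overlap between the larval groups, and in all 6 XO hermaphrodites were below, while 13.2% of all tested genes had every XO hermaphrodite L3 library below every XX male L3 library and 4.91% had them all above. The count of members called lower was 1, but it was 8 without XO hermaphrodite L3 replicate 1, and 0 when the L3 libraries were fitted alone or when replicate 3 of the XO hermaphrodites or replicate 1 of the XX males was left out. Without XO hermaphrodite L3 replicate 1 limma's adjusted p was 0.00429 for fbf-1, 0.034 for fbf-2, 0.0377 for puf-3 and 0.00863 for puf-5. It was 0.0112 for puf-6, 0.0319 for puf-7, 0.0288 for puf-8 and 0.000189 for puf-9, all lower. For puf-11 and puf-12 it was 0.191 and 0.363, not called. The calls of all genes moved too, from 631 of 14628 lower to 3708 of 14572 lower without XO hermaphrodite L3 replicate 1. Beside them, 4 of 10 oocyte markers and 2 of 7 germline markers were called lower in XO hermaphrodite L3 larvae, with sums of 30.6 to 41.8 against 54.2 to 72.4 FPKM for oocyte markers and 108.2 to 196.8 against 199.8 to 331.3 FPKM for germline markers. Their part in the members' values was not tested.

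The difference between the animals itself changed with stage for 9 of 10 members. The young adult difference minus the L3 difference was 7.06 for puf-5, 5.81 for puf-3, 5.23 for puf-11, 3.91 for puf-6, 3.67 for puf-7, 3.18 for puf-8, 2.08 for fbf-1, 1.79 for puf-12 and 1.57 for fbf-2, with limma adjusted p of at most 0.000519. For puf-9 it was 0.36 (limma adjusted p = 0.493), and 0.83 with an adjusted p of 0.00253 without XO hermaphrodite L3 replicate 1. Over all tested genes 32.6% were called in this direction and 23.9% in the other, and the medians were 3.43 for members and 0.07 for all genes.

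Between stages, 8 members were higher in XO hermaphrodite young adults than in XO hermaphrodite L3 larvae, against 33.7% of tested genes called higher and 28.5% called lower. In mean FPKM the ratio was 492.3 for puf-5, 170.0 for puf-3, 87.7 for puf-11, 63.4 for puf-6 and 39.6 for puf-7. It was 9.87 for puf-8, 3.95 for fbf-1 and 2.52 for fbf-2. puf-12 differed by 0.32 between the stages and puf-9 by -0.34, and neither passed the test (limma adjusted p = 0.186 and 0.343). All puf-12 libraries of the adults lay above those of the larvae, and with only the XO hermaphrodite libraries in the fit its adjusted p was 0.0383. puf-9 differed by 0.12 without XO hermaphrodite L3 replicate 1.

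In XX males 5 members were higher in young adults than in L3 larvae and 1 was lower, against 21.7% and 28.5% of tested genes. puf-6 rose by 1.57, puf-7 by 1.37, puf-5 and puf-3 by 0.81 each and puf-11 by 0.77 (limma adjusted p of at most 0.00542), and their ratios of mean FPKM lay between 1.87 and 3.31. puf-12 fell by 1.47 (limma adjusted p = 3.92e-05), and by 1.21 without XX male L3 replicate 3. fbf-1, fbf-2 and puf-8 differed by -0.34, -0.42 and -0.06 and were not called. puf-9 differed by -0.70 with an adjusted p of 0.0586, and with an adjusted p of 0.005 when only the XX male libraries were fitted. The members that rose in XX males were the 5 with oocyte roles, and 7 of 10 oocyte markers and 8 of 8 sperm markers were called higher in XX male young adults too, with oocyte sums of 109.5 to 137.3 FPKM against 54.2 to 72.4 FPKM in XX male larvae. Their part in the members' values was not tested. The stage comparisons share their libraries with the comparisons between animals.

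Ordered by mean level, fbf-1, fbf-2 and puf-8 ran from XO hermaphrodite young adults through XX male L3 larvae and XX male young adults to XO hermaphrodite L3 larvae. For fbf-2 and puf-8 the 2 XX male groups overlapped, and for fbf-2 the lowest XX male young adult library, at 4.29 FPKM, lay just above the highest XO hermaphrodite larval library, at 4.27 FPKM. puf-3, puf-5, puf-6, puf-7 and puf-11 ran from XO hermaphrodite young adults through XX male young adults and XX male L3 larvae to XO hermaphrodite L3 larvae, and of the neighbours in that order only the larval groups of puf-7 and puf-11 overlapped.

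The make-up of the family changed with these levels. Summed over the 10 genes, the level was 1374.6 ± 126.7 FPKM in XO hermaphrodite young adults (SD, n = 3) and 112.3 ± 4.9 FPKM in XX male young adults (SD, n = 4). It was 96.9 ± 12.5 FPKM in XO hermaphrodite L3 larvae and 141.1 ± 15 FPKM in XX male L3 larvae (SD, n = 3 each). puf-5 made up 32.3% of the sum in XO hermaphrodite young adults and 3.56% in XX male young adults. puf-12 made up 4.71% in XO hermaphrodite young adults and 19.5% in XX male young adults. In larvae puf-12 was the largest part, at 53.6% in XO hermaphrodites and 45.1% in XX males. puf-6 and puf-7 made up 10.4% and 12.2% in XO hermaphrodite young adults, against 13.6% and 15.8% in XX male young adults. The shares did not overlap between the adults for either gene, with XO hermaphrodites at 10.3% to 10.5% against XX males at 12.2% to 14.4% for puf-6, and XO hermaphrodites at 12.1% to 12.3% against XX males at 15.5% to 16.1% for puf-7. Shares were not tested.

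**Figure D3:**
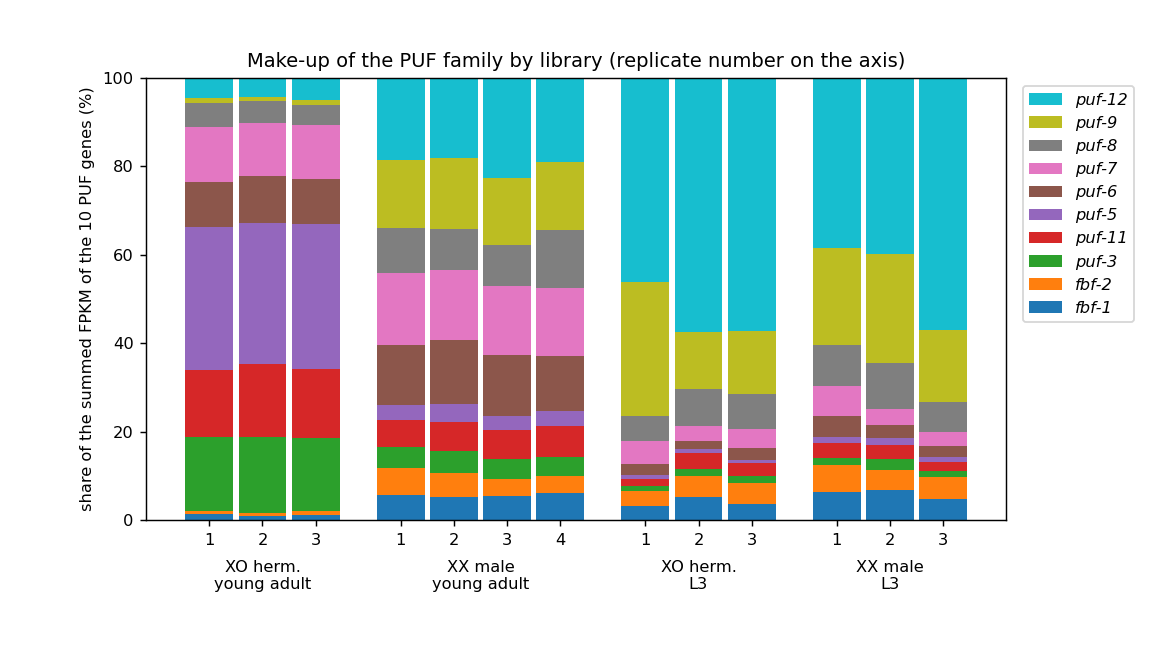
Share of each PUF gene in the summed FPKM of the 10 genes, in percent, with 1 bar a library and replicate numbers on the axis. puf-5, puf-3 and puf-11 fill most of the XO hermaphrodite young adult bars, puf-12 and puf-9 most of the L3 bars, and the XX male young adult bars are the most even.

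How reads shared by closely related members were assigned is not stated, and single values of fbf-1 and fbf-2, puf-3 and puf-11, and puf-6 and puf-7 are uncertain. As sums of FPKM, fbf-1 + fbf-2 rose in XO hermaphrodite young adults by 1.07, puf-3 + puf-11 by 5.05 and puf-6 + puf-7 by 3.19 (limma adjusted p of at most 5.85e-05). At L3 the sum of fbf-1 and fbf-2 fell by 0.90 (limma adjusted p = 0.0116), while puf-3 + puf-11 differed by -0.64 and puf-6 + puf-7 by -0.67 and neither was called. In XX males the sum of fbf-1 and fbf-2 was lower in young adults than in larvae by a difference of -0.40 with an adjusted p of 0.0499.

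Within pairs, the ratio of puf-3 to puf-11 was 1.09, 1.05 and 1.05 in XO hermaphrodite young adults, against 0.781, 0.762, 0.703 and 0.632 in XX male young adults. These ratios did not overlap. The difference of their log2 values was 0.57, and a two-sided exact permutation test gave p = 0.0571, the smallest that 3 against 4 libraries can give, and 0.3 after Benjamini-Hochberg adjustment over 6 such tests. The ratio of puf-7 to puf-6 was 1.16 to 1.19 in XO hermaphrodite young adults and 1.10 to 1.27 in XX male young adults, and that of fbf-1 to fbf-2 was 1.30 to 1.64 in XO hermaphrodite young adults and 0.955 to 1.65 in XX male young adults, so both overlapped. At L3 puf-7 to puf-6 was 2.18, 1.89 and 1.55 in XO hermaphrodites, against 1.45, 1.36 and 1.38 in XX males. The exact permutation p was 0.1, the smallest that 3 against 3 libraries can give, and 0.3 after adjustment over the same 6 tests.

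**Figure D4:**
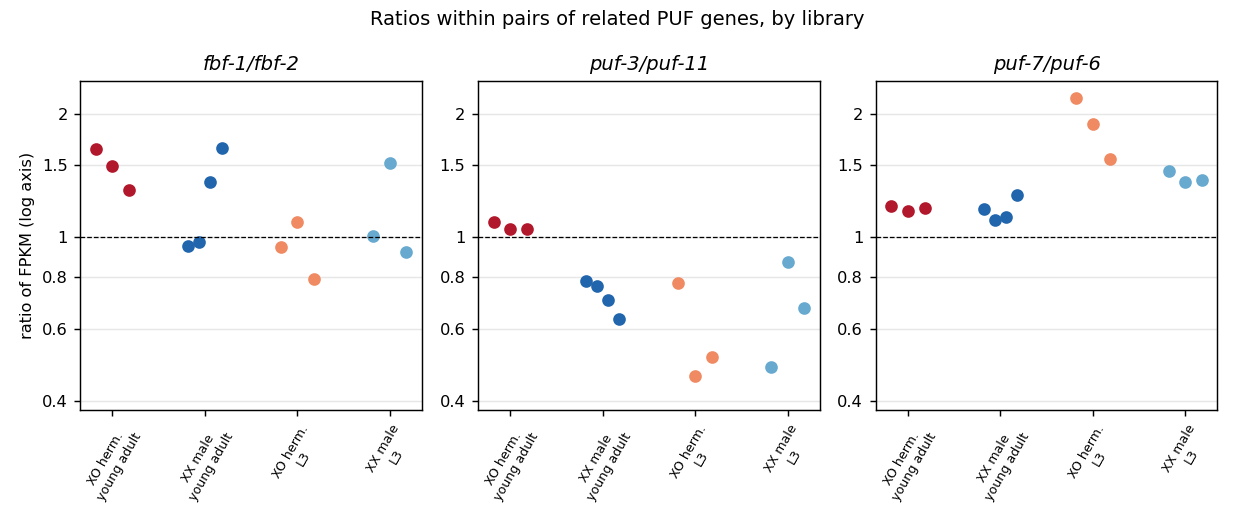
Ratio of FPKM within each pair of related PUF genes in each library, on a log axis, by group; the dashed line marks equal levels. For puf-3 over puf-11 the XO hermaphrodite young adults lie between 1.05 and 1.09 and all XX male young adults lie between 0.632 and 0.781.

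FBF target mRNAs were mostly higher in XO hermaphrodite young adults, with 10 of 14 called higher and 2 called lower, and a median difference of 1.40. Of all tested genes 33.9% were called higher and 33.3% lower, with a median of -0.11. fem-3, which directs sperm fate, was at 42.1 ± 5.88 FPKM in XO hermaphrodite young adults and 3.48 ± 0.717 FPKM in XX male young adults (SD, n = 3 and 4). It rose by 3.27 (limma adjusted p = 4.69e-08). gld-1, a translational repressor that drives entry into meiosis, was at 388.5 ± 27.3 FPKM in XO hermaphrodite and 64.5 ± 12.8 FPKM in XX male young adults and rose by 2.59. gld-3, a cofactor of the GLD-2 poly(A) polymerase, rose by 2.58.

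The targets that fell act in sperm fate. fog-3 was at 2.41 ± 1.06 FPKM in XO hermaphrodite young adults and 54.6 ± 5.96 FPKM in XX male young adults (SD, n = 3 and 4) and fell by 4.07 (limma adjusted p = 5.17e-08). fog-1 fell by 0.74 (limma adjusted p = 0.00382), and by 0.34 with an adjusted p of 0.123 when scaled to an equal sum. The 8 sperm markers were all called lower in XO hermaphrodite young adults, and 6 of 7 germline markers were called higher, at 729.3 to 811.7 against 348.1 to 393.8 FPKM in sum. Among markers of somatic tissue 4 of 5 body muscle, 4 of 6 intestine, 3 of 5 neuron and 2 of 4 hypodermis markers were called lower. 1 hypodermis marker was called higher, and 33.3% of all tested genes were called lower. Over the alternatives the counts lower ranged over 4 to 5 for body muscle, 1 to 6 for intestine, 3 to 4 for neuron and 1 to 3 for hypodermis markers. The part of these markers in the values was not tested.

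At L3, 10 of 14 FBF targets were called lower in XO hermaphrodites and none higher, with a median of -1.36. All tested genes had 4.31% called lower and 1.26% higher, with a median of -0.25. fog-3 was at 5.92 ± 1.68 FPKM in XO hermaphrodite larvae and 29.1 ± 8.03 FPKM in XX male larvae (SD, n = 3 each) and fell by 2.12 (limma adjusted p = 0.00235). gld-1 fell by 2.07 and him-3, a protein of the meiotic chromosome axis, by 2.05. When the L3 libraries were fitted alone, 0 of the 14 were called, and without XO hermaphrodite L3 replicate 1 the count was 13. Without that replicate 3708 of 14572 tested genes were called lower.

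PUF partners and deadenylation factors had 9 of 12 members higher and 0 lower in XO hermaphrodite young adults, against 33.9% and 33.3% of all tested genes. sygl-1, which acts with FBF in germline stem cells, was at 165 ± 22.5 FPKM in XO hermaphrodite young adults and 14.3 ± 1.81 FPKM in XX male young adults (SD, n = 3 and 4) and rose by 3.44. ccr-4, a deadenylase of the CCR4-NOT complex, rose by 1.68. The partners gld-2, cpb-1 and dlc-1 differed by 0.50, -0.16 and 0.41 and were not called. At L3 the list had 4 lower and 0 higher, and cpb-1, a CPEB protein needed in spermatogenesis, was at 0.682 ± 0.305 FPKM in XO hermaphrodite larvae and 13.7 ± 3.93 FPKM in XX male larvae (SD, n = 3 each) and fell by 3.12 (limma adjusted p = 0.000109). gld-3 fell by 1.45 and nos-3, a Nanos relative that binds FBF-1, by 1.22. Without XO hermaphrodite L3 replicate 1 the count lower was 10, and when the L3 libraries were fitted alone it was 0. All tested genes had 4.31% lower at L3 in the main fit, and 3708 of 14572 lower without that replicate.

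Among 4 targets of PUF-5, PUF-8 and PUF-9, glp-1 and pal-1 were called higher in XO hermaphrodite young adults and none lower. With 33.9% of all tested genes called higher, a list of 4 is too short to compare. pal-1, a caudal-type homeobox gene kept silent in the germline, was at 110.7 ± 12.7 FPKM in XO hermaphrodite young adults and 8.49 ± 1.21 FPKM in XX male young adults (SD, n = 3 and 4) and rose by 3.56. glp-1, a Notch receptor of germline stem cells, rose by 3.40 and at L3 fell by 1.30 (limma adjusted p = 0.00555). hbl-1, the PUF-9 target, was at 2.10 ± 0.364 and 0.772 ± 0.198 FPKM in adult XO hermaphrodites and XX males and was not called, with a difference of 0.81 (limma adjusted p = 0.171). In XX males hbl-1 was lower in young adults than in larvae, by a difference of -2.20 (limma adjusted p = 0.00275), beside the puf-9 difference of -0.70.

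**Figure D5:**
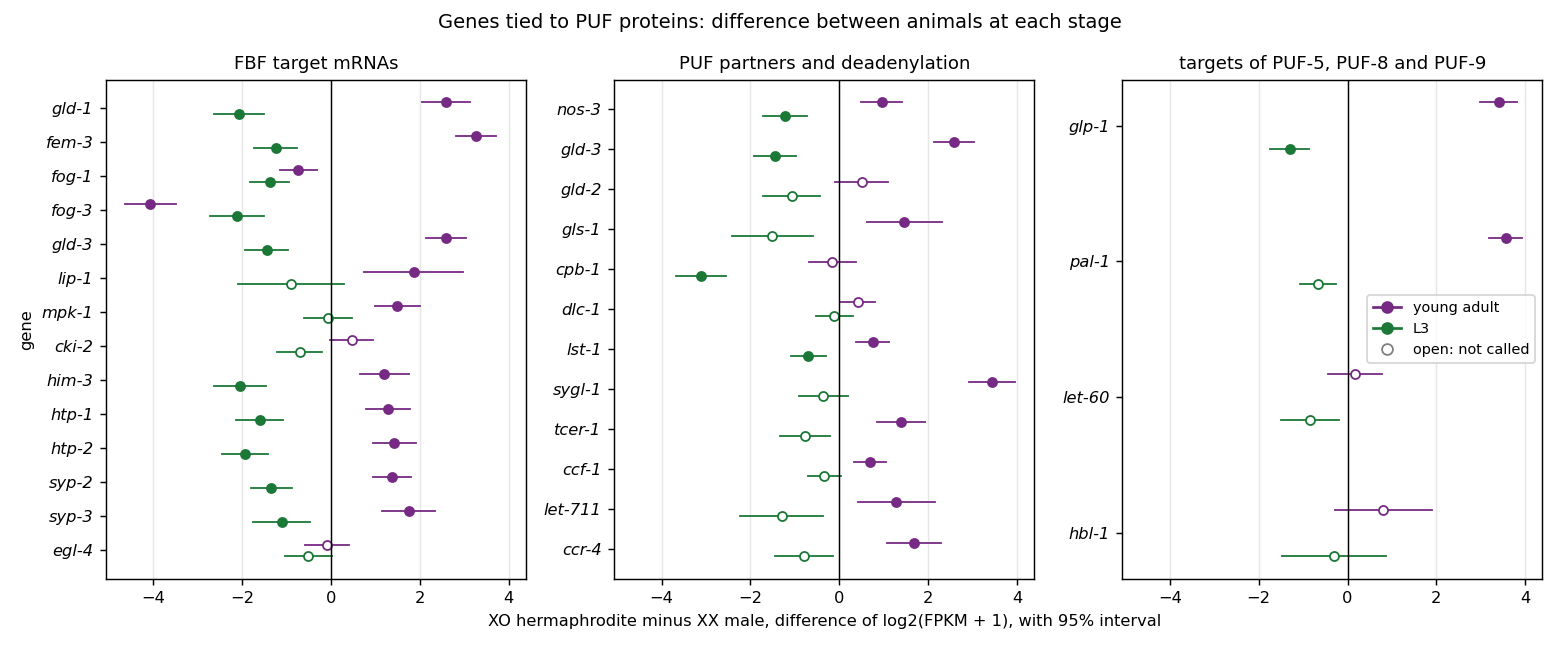
Difference between XO hermaphrodites and XX males in log2(FPKM + 1), with limma's 95% interval, for 3 lists of genes tied to PUF proteins, in young adults and at L3; filled points were called. For most genes the young adult point lies right of 0 and the L3 point left of it, while fog-1 and fog-3 were called left of 0 at both stages, fog-3 at -4.07 and -2.12.

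Between stages, 13 of 14 FBF targets, 11 of 12 partners and 2 of 4 other targets were higher in XO hermaphrodite young adults than in larvae. Of all tested genes 33.7% were called higher and 28.5% lower there. gld-1 rose by 5.61, gld-3 by 4.87, pal-1 by 4.64, cpb-1 by 4.58, glp-1 by 4.26, fem-3 by 4.22 and sygl-1 by 3.48, while fog-3 fell by 1.04 (limma adjusted p = 0.00595). In XX males 5 of 14 FBF targets were higher and 0 lower, and 3 of 12 partners were higher and 3 lower. All tested genes had 21.7% called higher and 28.5% lower, and in the main fit only the partners lay near both shares. Over the alternatives the FBF targets called higher ranged over 1 to 9. The partners ranged over 2 to 6 higher and 0 to 3 lower. cpb-1 rose by 1.62, lst-1 by 1.15, cki-2 by 1.03, gld-1 by 0.95, fog-3 by 0.91 and gld-3 by 0.84, and ccr-4, tcer-1 and dlc-1 fell by 0.73, 0.71 and 0.48 (limma adjusted p = 0.0456, 0.0283 and 0.0403). Of 28 alternatives, the call was lost in 16 for ccr-4, 8 for tcer-1 and 15 for dlc-1. The difference between animals changed with stage toward XO hermaphrodite adults for 11 of 14 FBF targets, 11 of 12 partners and 2 of 4 other targets, and the other way for fog-3, at -1.95. Of all tested genes 32.6% changed toward XO hermaphrodite adults and 23.9% the other way.

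Genes whose log2(FPKM + 1) followed each member most closely over the 13 libraries were named by Pearson's r among the 8579 genes that averaged 10 FPKM or more. These libraries fall into 4 groups, so r mostly describes the group pattern, and relative depth differed between libraries within groups. For puf-9 r also takes in the spread of XO hermaphrodite L3 larvae, with replicate 1 at 33.7 FPKM against 11.5 and 12.8 FPKM. No r was taken without that replicate. For puf-3, puf-5 and puf-11 the closest genes included egg-5 at 0.998, 0.997 and 0.998, and egg-4 at 0.998 for both puf-3 and puf-11. The remaining gene was gln-5 at 0.997 for puf-3, and the others for puf-5 were C39D10.7 and Y62E10A.14 (memi-2) at 0.996. EGG-4 and EGG-5 are pseudophosphatases of the oocyte-to-embryo transition. The closest to puf-11 was mex-1, which encodes a maternal RNA-binding protein, at 0.999. For puf-6 and puf-7 the closest genes included egg-3, at 0.994 and 0.995, and for puf-6 the cyclin gene cyb-2.2 at 0.997. The others were C29A12.1 at 0.992 for puf-6, and Y17G9B.9 at 0.9965 and C37C3.9 at 0.995 for puf-7. The 3 genes closest to puf-8 were fic-1, F55A11.7 and tam-1, at 0.988 to 0.989.

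The remaining members had other neighbours. fbf-1 was followed by dpy-28, a condensin subunit gene of dosage compensation and meiosis, at 0.974, and by mut-7, an exonuclease gene of germline small RNA pathways, at 0.964. After them came tag-182 (nfx-1) at 0.963. For fbf-2 the highest was ncbp-2, a subunit gene of the nuclear cap-binding complex, at 0.906, then C46A5.6 at 0.903 and cel-1 at 0.902. puf-9 was followed by ztf-12 at 0.990, by alg-1, a microRNA Argonaute gene, at 0.987, and by apa-2 at 0.977. puf-12 was followed by iftb-1, a translation initiation factor gene, at 0.988, by tag-151 at 0.987 and by Y71G12B.8 (ddx-27) at 0.985. Among the members themselves r was 0.998 for puf-3 with puf-5 and 0.997 for puf-6 with puf-7, against 0.887 for fbf-1 with fbf-2. puf-9 had r below 0 with every member except puf-12, where it was 0.07.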

How the data were processed

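RNA of whole worms was purified with oligo(dT) beads and turned into stranded libraries with dUTP, per the labels. The authors deposited values in FPKM per gene and library, as the file headers show, and the submitters' processing notes list Cufflinks 2.2.0. Aligner, annotation and genome build: not given in the sources used here. By name, 14 value columns were matched to samples and 0 stayed unmatched. The table had 20417 rows, 6 of them repeats, and 20376 genes had a value in every library. A library marked as reverted was left out of fits.

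Group means of log2(FPKM + 1) over 13 libraries were compared with limma 3.58.1 (R 4.3.3; lmFit, then eBayes with trend) for the 14628 genes that averaged 1 FPKM or more. P-values were adjusted by Benjamini-Hochberg over all of these genes, with a threshold of 0.05. Pair ratios were compared by two-sided exact permutation. The fit was run on simulated data in which all libraries had the spread of XX male young adults and only the young adult comparison held added changes. Calls at L3, where the spread was larger, were not tested in this way. Tables and figures were made in Python 3.11.15 (pandas 2.3.3, numpy 2.4.6, matplotlib 3.10.9). Alternatives covered pseudocounts, filters, scalings, array weights, the replicate block, separate fits of the groups compared, summed pairs, thresholds and leaving out each library. Depth is known only relative to 1 library.

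Members, gene lists, tests and alternatives were chosen with earlier results of these data known. Text names all members, up to 3 called genes per pathway list and direction with the largest difference in a comparison, and the 3 genes most like each member. Genes named outside this rule, gld-2, dlc-1, hbl-1 and cpb-1 in young adults and afmd-2, were chosen after their values were seen. sygl-1 is listed as T27F6.4 and afmd-2 as Y45F10A.3 in the table.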

Additional observations from a re-analysis of the deposited data

Results flagged for a closer look

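The difference between XO hermaphrodites and XX males changed with stage (limma interaction, adjusted p under 0.05) for 9 PUF genes and 15 of the 18 genes named from the pathway lists. Of all tested genes 32.6% were called higher and 23.9% lower in this test. The 18 genes had been picked for calls with large differences, this test included, so their count is no result about the lists. As young adult difference minus L3 difference in log2(FPKM + 1), the members were fbf-1 at 2.08, fbf-2 at 1.57, puf-3 at 5.81, puf-5 at 7.06, puf-6 at 3.91, puf-7 at 3.67, puf-8 at 3.18, puf-11 at 5.23 and puf-12 at 1.79. Among FBF targets they were gld-1 at 4.66, fem-3 at 4.52, gld-3 at 4.03, him-3 at 3.24, cki-2 at 1.17 and fog-3 at -1.95. Among partners they were sygl-1 at 3.81, gls-1 at 2.98, cpb-1 at 2.96, ccr-4 at 2.48, nos-3 at 2.17, tcer-1 at 2.16 and lst-1 at 1.45. glp-1 stood at 4.70 and pal-1 at 4.22.

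Among XX male young adults, replicate 4 lay far above the other 3 libraries for 5 of 28 genes tested, at 45.5 FPKM for cki-2, 65.5 FPKM for cpb-1, 19.5 FPKM for gld-3, 7.70 FPKM for glp-1 and 54.2 FPKM for lst-1. Chance marks about 1 in 20 groups. No PUF gene was among the 5 marked genes, although 5 members were highest in the same library: puf-8 at 15.6, puf-9 at 18.5, puf-7 at 18.4, puf-11 at 8.24 and fbf-1 at 7.35 FPKM.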

How the results depend on the processing

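Of 28 alternatives, none turned round the direction of a called member. The count of 9 members higher in XO hermaphrodite young adults stayed at 8 to 9, and the count lower, 0, was 1 (puf-9) with upper quartile scaling, array weights or only the groups compared, and 0 to 1 when 1 library was left out. The L3 count of 1 lower was 5 with a pseudocount of 0.1, 4 with 0.5, 3 with a filter of 5 FPKM, 7 with an equal sum, 8 with array weights, 2 with summed pairs, and 0 with quantile normalization, only the groups compared, an adjusted p under 0.01, or a log2 difference of at least 1. It was 0 to 8 when 1 library was left out. With a replicate block it was 0. Of all 14628 tested genes, 631 were lower at L3 in the main fit, 1775 with an equal sum and 4311 with array weights. Deviations of same-numbered libraries correlated at -0.062 to -0.017 (r, L3) and 0.047 to 0.298 (r, young adults). In the adults each XO hermaphrodite library matched its own number best among XX male replicates 1 to 3, and XX male replicate 4 was not compared. The numbers are those of the sample titles, and the file headers number the XO hermaphrodite young adults differently. This is a hint from the data and not the design, and the libraries were not treated as paired. Between stages in XO hermaphrodites, 0 lower became 1 with upper quartile scaling or quantile normalization. In XX males, 5 higher became 2 with a log2 difference of at least 1, and 1 lower became 2 with upper quartile scaling, array weights, only the groups compared or the replicate block, 4 with quantile normalization, 3 with summed pairs, and 1 to 2 when 1 library was left out. dlc-1, not called between stages in XO hermaphrodites at 0.04, was called at -0.53 with upper quartile scaling, 0.71 with an equal sum and 0.62 with quantile normalization. FBF targets lower at L3 ranged over 0 to 13 and partners over 0 to 10. Scaling moved the median of all genes in young adults between -0.41 with upper quartile scaling and 0.27 with quantile normalization, and the higher share of calls between 39.3% and 61.6%, while the members' median stayed between 2.38 and 3.20. At L3 only 1 gene was called higher and 2 lower when those libraries were fitted alone. The causes were not tested.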

Other observations

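A further TY2205 young adult library, which its submitters marked as reverted and which entered no comparison, had 433.7 FPKM of puf-5, 257.2 of puf-3, 252.6 of puf-11, 162.2 of puf-7 and 139.8 of puf-6. It had 83.6 FPKM of puf-8, 71.9 of puf-12, 13.7 of fbf-1, 12.3 of puf-9 and 9.36 of fbf-2. puf-4, a PUF gene outside the 10 that a reference annotation lists as a pseudogene, was at 0 to 1.21 FPKM over the 13 libraries, under the filter on low values.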
